A study of Homo sapiens with 120 samples.

Results

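The small nucleolar RNA host genes were followed in 120 RNA libraries from the human embryonic stem cell line H1, which is an established line. They were taken as every gene named SNHG with a number, plus GAS5, ZFAS1, DANCR and EPB41L4A-AS1. The rule found 32 of the 62703 genes in the deposited table. Of these, 31 passed the filter on low counts and were tested. SNHG27 did not pass, with 0 counts in 107 of the 120 libraries and at most 3 in any other.

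The study edited or overexpressed LNCPRESS1 (lncPRESS1), a long non-coding RNA gene expressed in pluripotent cells, and sequenced polyadenylated RNA. The differentiation part compared knockout (KO) and ΔATG cells with unedited (WT) cells, in 96 libraries that cover day 0 and, daily, days 1 to 5 of 3 protocols. The protocols were BMP4 for mesoderm, a SMAD inhibitor kit for neuroectoderm (SMADi) and a definitive endoderm kit (Endo). The overexpression part compared cells carrying lncPRESS1, lncPRESS1ΔATG or lncSIRP with cells carrying the vector, in 24 libraries from stages labelled early, middle and late. ΔATG means, by its name, that a start codon was removed. The sources used here do not give the number of clones behind an edit, the identity of lncSIRP or the days of the stages, so the effect of an edit and that of a clone cannot be told apart. Each group had 2 libraries, a and b, and no label says whether these were separate cultures. The p-values therefore rest on the spread between libraries of a group, which may be technical. For each gene that spread was estimated over all 48 groups of the differentiation part or all 12 of the overexpression part. It is not the spread within the groups compared alone.

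Small nucleolar RNAs (snoRNAs) guide the chemical modification of ribosomal RNA: those with C/D boxes guide methylation of the ribose, and those with H/ACA boxes guide conversion of uridine to pseudouridine. In human cells most snoRNAs are cut out of the introns of longer transcripts. The host genes considered here have spliced products that code for little or no protein, several of which are broken down by nonsense-mediated decay when they are translated. Many host genes begin transcription within a run of pyrimidines, the 5′ terminal oligopyrimidine (TOP) start that they share with the genes of ribosomal proteins and that ties translation, and often abundance, to growth signals.

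Total counts ran from 38298440 to 71220396 per library in the differentiation part and from 40113672 to 65466258 in the overexpression part, and the host genes together held 0.136 to 0.393% of them. Levels are given in CPM, counts brought to a common library total after TMM scaling, library a before library b, and describe one gene across libraries, since they are not divided by gene length. Differences are log2 fold changes ± SE, n = 2 libraries per group, and a gene was said to rise or fall where the adjusted p of the edgeR quasi-likelihood test, over all genes tested, was under 0.05. In these bulk samples, fewer cells of a type and less RNA per cell cannot be told apart.

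The edited gene was used to check the labels. LNCPRESS1 measured 13.2 and 5.60 CPM in KO cells and 53.1 and 35.2 CPM in ΔATG cells at day 0, against 21.4 and 40.6 CPM in WT cells. At day 0 only the difference in KO was called (-1.70 ± 0.22, adjusted p = 2.22e-07). Over days 1 to 5 it fell in KO in BMP4 (-1.27, adjusted p = 1.14e-14), where ΔATG was not called (-0.07, adjusted p = 0.719). In SMADi both lines had less of it than WT, with -3.47 in KO (adjusted p = 7.72e-20) and -3.61 in ΔATG (adjusted p = 1.87e-16). Between ΔATG and KO it was not called there (-0.15 ± 0.43). In Endo it was called in neither (KO -0.45, adjusted p = 0.891; ΔATG 1.05, adjusted p = 0.220), and on day 3 it measured 0.141 and 0.167 CPM in KO and 0.358 and 0.339 CPM in ΔATG, against 0.110 and 0.0784 CPM in WT. In the overexpression part LNCPRESS1 was at 32.3 and 53.8 CPM in early libraries labelled lncPRESS1, against 28.97 and 30.2 CPM in the early vector libraries. It was at 185 and 133 CPM in early libraries labelled lncSIRP, higher than in those labelled lncPRESS1, so construct names below are those on the labels. The protocols were checked by markers in WT cells at day 5. SOX17, an endoderm factor, reached 423 and 422 CPM in Endo. HAND1, of mesoderm, reached 208 and 240.3 CPM in BMP4, and PAX6, of neuroectoderm, 139 and 161 CPM in SMADi. Sums over 3 markers did not all separate the protocols. The neuroectoderm sum (PAX6, SOX1 and OTX2) was 812 and 804 CPM in Endo, above the 443 and 463 CPM in SMADi. The mesoderm sum (TBXT, MIXL1 and HAND1) was 222 and 227 CPM in Endo, against 237 and 268 CPM in BMP4. The endoderm sum (SOX17, CER1 and FOXA2) was 12683 and 12252 CPM in Endo, against 52.2 and 53.8 CPM in BMP4.

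In the GENCODE 29 annotation (GRCh38) all 32 host genes were found by their identifiers. Of these, 26 contain at least 1 snoRNA gene on their own strand, 139 in all, of which 108 are C/D box and 24 H/ACA box genes and the others carry no class in that annotation. SNHG14, the transcript of the imprinted Prader-Willi region on chromosome 15 (24978583 to 25419462), holds 84 of them. SNHG1 on chromosome 11 (62851988 to 62855914) holds 7, among them SNORD22 and SNORD25. GAS5, SNHG10, SNHG20, SNHG21, SNHG22 and SNHG27 hold none in that release, although GAS5 is a well-known host of C/D box snoRNAs, and SNHG20 and SNHG22 hold genes of the related small Cajal body RNAs. In these libraries of polyadenylated RNA, 114 of the 139 snoRNA genes had 0 counts throughout, and only SNORA73B, inside SNHG3, had a median count of at least 10 (median 15, range 3 to 71). The values below are therefore those of the host genes, each counted as a whole, and do not give the levels of the snoRNAs. Spliced and unspliced host RNA were not told apart. The annotated exons of SNHG1, for example, cover 3756 of the 3927 bases it spans. Of the 139 snoRNA genes, 92 had no overlap with an exon of their host.

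The start sites are shown because a TOP start is the sequence feature that the host genes and the ribosomal protein genes are known to share. The RefSeq promoter table for GRCh38.p14 matched 28 of the 32 host genes. Each stretch below has 60 bases, 5′ to 3′ on the strand of the gene, with 30 bases before the annotated start, and capitals mark CTTT where it lies within 10 bases of that start. The 9 host genes with that match come first, followed by SNHG1, GAS5 and DANCR, which had none in that window. The GAS5 stretch lies wholly upstream of the gene as GENCODE 29 places it (173863900 to 173868882), so the annotations differ in its start. The sequence at the GENCODE start of GAS5 was not searched.

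SNHG12, chr1:28581844-28581903, minus strand: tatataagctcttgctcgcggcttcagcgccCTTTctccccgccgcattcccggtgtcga
SNHG8, chr4:118278732-118278791, plus strand: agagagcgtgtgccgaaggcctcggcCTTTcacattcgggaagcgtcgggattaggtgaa
SNHG4, chr5:139274071-139274130, plus strand: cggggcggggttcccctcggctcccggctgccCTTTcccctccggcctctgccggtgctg
SNHG32, chr6:31834886-31834945, plus strand: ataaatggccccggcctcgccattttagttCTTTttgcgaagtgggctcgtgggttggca
SNHG5, chr6:85678704-85678763, minus strand: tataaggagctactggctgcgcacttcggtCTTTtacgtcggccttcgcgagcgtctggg
SNHG19, chr16:2155329-2155388, minus strand: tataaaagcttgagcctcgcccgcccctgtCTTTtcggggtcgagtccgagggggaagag
SNHG29, chr17:16438957-16439016, plus strand: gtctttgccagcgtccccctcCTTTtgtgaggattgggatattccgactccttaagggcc
SNHG16, chr17:76557734-76557793, plus strand: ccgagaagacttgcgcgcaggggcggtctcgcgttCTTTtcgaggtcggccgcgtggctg
ZFAS1, chr20:49278612-49278671, plus strand: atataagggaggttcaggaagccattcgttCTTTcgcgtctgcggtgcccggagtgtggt
SNHG1, chr11:62855856-62855915, minus strand: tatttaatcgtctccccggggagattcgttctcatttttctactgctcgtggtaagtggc
GAS5, chr1:173869016-173869075, minus strand: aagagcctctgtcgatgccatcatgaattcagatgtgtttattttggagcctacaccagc
DANCR, chr4:52712364-52712423, plus strand: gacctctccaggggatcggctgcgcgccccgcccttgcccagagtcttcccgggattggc

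CTTT on the strand of the gene was present within 10 bases of the start in 9 of 28 host genes (32.1%), in 36 of 63 ribosomal protein genes (57.1%) and in 2411 of all 27305 promoters of the table (8.83%). Its reverse complement, AAAG, was present in 1 host gene (3.57%), 2 ribosomal protein genes (3.17%) and 1773 promoters (6.49%). The match depends on a single annotated start per gene and describes letters in a window. It does not by itself tell a TOP start from its absence. In SNHG8 and SNHG29 the CTTT lies wholly before the annotated start. The base at the annotated start is G in SNHG16 and SNHG29, which match, and C in SNHG1, which does not. The 9 matches did not share a direction of change: by day 5 of WT differentiation, SNHG4, SNHG5, SNHG16 and SNHG19 fell in every protocol, whereas SNHG29 and SNHG32 rose in every protocol.

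The first comparison asked how the host genes change as unedited cells leave the stem cell state. Most of those that changed fell, and DANCR and SNHG4 fell deepest in each protocol among host genes whose average log2 CPM was 1 or more. At day 5 against day 0, 4 of 31 tested host genes rose and 20 fell in Endo, which is 77.4% called, where 63.4% of all genes tested were called. In BMP4 5 rose and 15 fell (64.5% called, all genes 45.0%), and in SMADi 6 rose and 14 fell (64.5% called, all genes 53.5%). The median log2 fold change of the host genes was -0.99 in Endo, -0.42 in BMP4 and -0.40 in SMADi, and that of all genes tested was -0.05 in Endo, 0.00 in BMP4 and 0.00 in SMADi. The 3 comparisons share the WT libraries of day 0.

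DANCR, named for opposing differentiation and known for holding epidermal progenitors undifferentiated, had its highest levels in stem cells. It measured 27.3 and 29.6 CPM at day 5 of Endo, 48.4 and 50.6 CPM at day 5 of BMP4 and 53.7 and 50.5 CPM at day 5 of SMADi, against 247 and 239 CPM at day 0. No day 5 library reached the day 0 range in any protocol. The fall was -3.09 ± 0.14 in Endo (adjusted p = 8.20e-27), -2.29 ± 0.13 in BMP4 (adjusted p = 2.77e-21) and -2.22 ± 0.13 in SMADi (adjusted p = 5.71e-21). In Endo it was at 194 and 172 CPM at day 1, 63.9 and 61.7 at day 2 and 23.7 and 20.2 at day 3, so that most of the drop lay between days 1 and 3.

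SNHG4, host of SNORA74A, measured 15.7 and 13.2 CPM at day 5 of Endo, 52.2 and 40.7 CPM at day 5 of BMP4 and 28.8 and 26.5 CPM at day 5 of SMADi, against 117 and 100.2 CPM at day 0. The groups did not overlap, and the fall was -2.91 in Endo (adjusted p = 1.52e-27), -1.22 in BMP4 and -1.97 in SMADi. Its exons share 14.0% of their length with MATR3 on the same strand, so reads may have been divided between these genes. SNHG1 behaved differently by protocol. It measured 55.0 and 64.6 CPM at day 5 of Endo against 180.1 and 287 CPM at day 0 (-1.97 ± 0.12, adjusted p = 1.69e-20), and no Endo library overlapped day 0. At day 5 of BMP4 it measured 207 and 236 CPM and at day 5 of SMADi 233 and 247 CPM, within the wide day 0 range, and neither difference was called (BMP4 -0.08, SMADi 0.04).

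**Figure D1:**
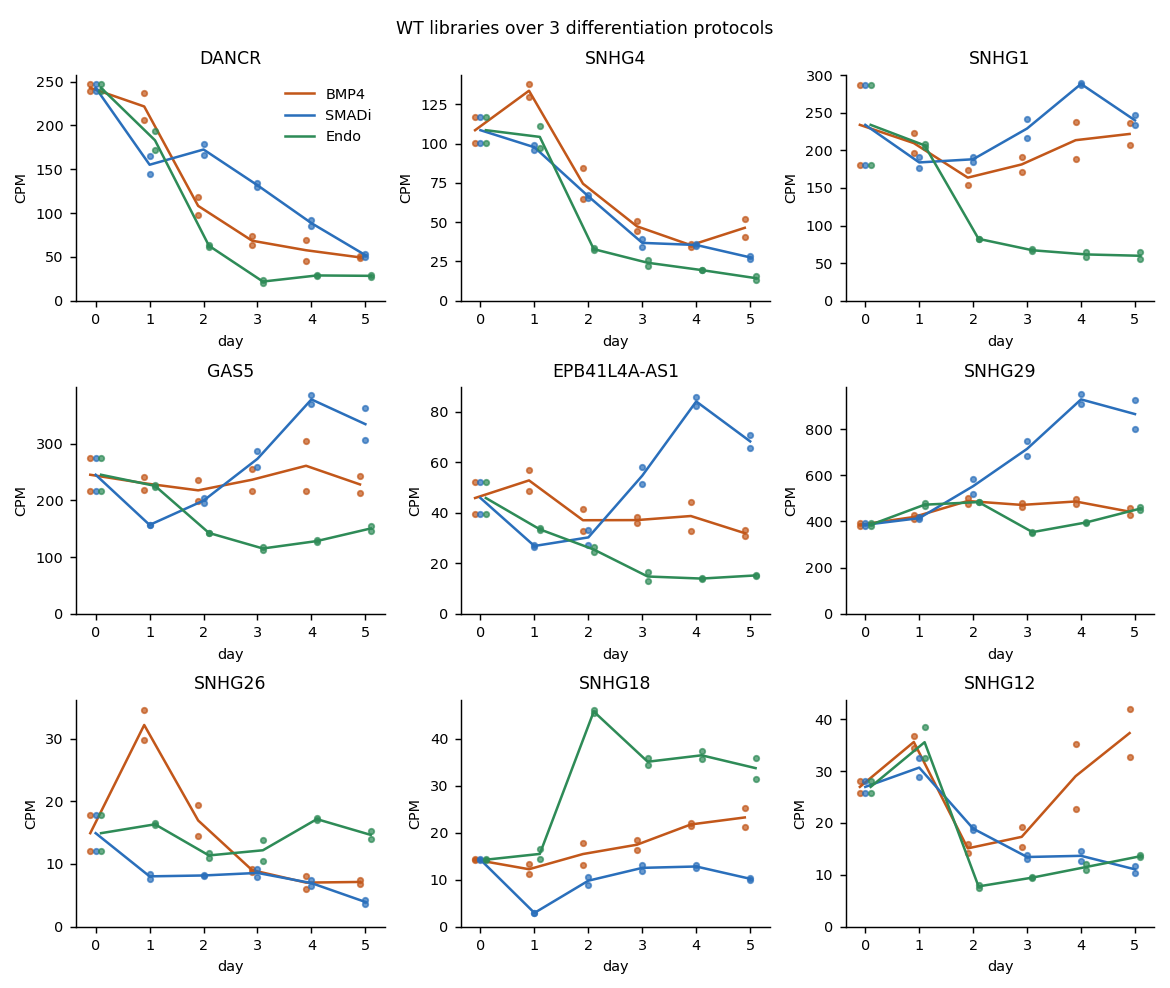
CPM of 9 host genes in WT cells on days 0 to 5 (x axis, days) of BMP4, SMADi and Endo. Points are single libraries, lines join the means of 2 libraries, and each panel has its own y axis starting at 0. DANCR, SNHG4 and SNHG1 are low from day 2 or 3 of Endo on, and EPB41L4A-AS1, GAS5 and SNHG29 peak on day 4 of SMADi.

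Not every host gene fell. SNHG29 (LRRC75A-AS1 in GENCODE 29) measured 802 and 928 CPM at day 5 of SMADi against 392 and 378 CPM at day 0 (1.17 ± 0.06, adjusted p = 1.22e-22), with no overlap, and rose less in Endo (0.24) and BMP4 (0.20). SNHG32 (C6orf48 in GENCODE 29, where it is annotated as protein coding) rose in Endo (0.55), BMP4 (0.49) and SMADi (0.85). It measured 100.0 and 102 CPM at day 5 of Endo, 92.7 and 102 CPM at day 5 of BMP4 and 119.8 and 129 CPM at day 5 of SMADi, against 58.6 and 79.7 CPM at day 0, and every day 5 library was above both of day 0. SNHG29 and SNHG32 were the only host genes called higher in all 3 protocols. Called lower in all 3 were 9: DANCR, SNHG3, SNHG4, SNHG5, SNHG7, SNHG14, SNHG16, SNHG19 and SNHG30. SNHG11 and SNHG22 were called in none.

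Of the other host genes with a deep fall, SNHG5, host of SNORD50 snoRNAs, measured 35.5 and 38.1 CPM at day 5 of Endo, 86.3 and 93.7 CPM at day 5 of BMP4 and 69.3 and 81.2 CPM at day 5 of SMADi, against 147 and 164 CPM at day 0. SNHG19 measured 4.63 and 5.64 CPM in Endo, 9.93 and 11.1 CPM in BMP4 and 6.38 and 6.15 CPM in SMADi, against 20.5 and 19.6 CPM at day 0. For both genes each day 5 library lay below each day 0 library, and the falls were deepest in Endo (-2.08 ± 0.12 for SNHG5 and -1.96 ± 0.19 for SNHG19). SNHG14 measured 303 and 305 CPM at day 5 of Endo, 625 and 526 CPM in BMP4 and 505 and 528 CPM in SMADi, against 832 and 796 CPM at day 0, with a fall of -1.42 ± 0.08 in Endo (adjusted p = 4.38e-23). SNHG26, host of SNORD93, fell in BMP4 (-1.06 ± 0.17, adjusted p = 3.24e-07) and SMADi (-1.93 ± 0.18, adjusted p = 2.13e-13) and was not called in Endo (-0.03), with 14.0 and 15.3 CPM at day 5 of Endo, 7.37 and 6.86 CPM in BMP4 and 3.63 and 4.21 CPM in SMADi, against 17.8 and 11.99 CPM at day 0. The day 5 Endo libraries of SNHG26 lay inside the day 0 range, and those of the other protocols below it.

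Another 3 host genes went in opposite directions. GAS5, which accumulates in growth-arrested cells and whose RNA can bind the glucocorticoid receptor, measured 147 and 155 CPM at day 5 of Endo and 306 and 364 CPM at day 5 of SMADi, against 216 and 274 CPM at day 0. It fell in Endo (-0.70 ± 0.12, adjusted p = 1.06e-06) and rose in SMADi (0.45 ± 0.12, adjusted p = 0.00123), without overlap in either case. EPB41L4A-AS1, which lies antisense to the start of EPB41L4A and hosts SNORA13, measured 15.0 and 15.3 CPM at day 5 of Endo, 30.6 and 33.2 at day 5 of BMP4 and 65.8 and 70.7 at day 5 of SMADi, against 39.4 and 52.2 CPM at day 0. It fell in Endo (-1.60) and BMP4 (-0.52) and rose in SMADi (0.58). Its exons overlap those of EPB41L4A on the opposite strand over 49.6% of their length, and the strand setting used in counting is not given in the sources used here. SNHG12, host of SNORA44 and SNORD99, rose in BMP4 (0.47 ± 0.15, adjusted p = 0.00884) and fell in Endo (-0.99) and SMADi (-1.29 ± 0.16, adjusted p = 1.39e-09).

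ZFAS1, antisense to the start of ZNFX1 and host of the SNORD12 family, measured 97.0 and 102 CPM at day 5 of Endo, 129.9 and 152 CPM at day 5 of BMP4 and 132 and 149 CPM at day 5 of SMADi, against 85.3 and 97.6 CPM at day 0. It rose in BMP4 (0.62, adjusted p = 7.59e-06) and SMADi (0.62, adjusted p = 5.96e-06) and was not called in Endo (0.12). SNHG18, host of SNORD123, rose in Endo (1.24 ± 0.20, adjusted p = 3.66e-07) and BMP4 (0.70), with 35.9 and 31.5 CPM at day 5 of Endo and 21.2 and 25.2 CPM at day 5 of BMP4 against 14.3 and 14.1 CPM at day 0. Of the calls named for WT cells, those of SNHG12 (without WT day 0 library b or WT BMP4 day 5 library b, adjusted p up to 0.224), SNHG18 (without WT BMP4 day 5 library b, adjusted p = 0.0565), SNHG29 (without WT day 0 library b or WT BMP4 day 5 library a, adjusted p up to 0.183), EPB41L4A-AS1 (without WT day 0 library b, adjusted p = 0.123) and SNHG16 (without WT day 0 library a, adjusted p = 0.0838) in BMP4 and of GAS5 (without WT day 0 library a or WT SMADi day 5 library b, adjusted p up to 0.170), SNHG7 (without WT day 0 library b, adjusted p = 0.111) and SNHG16 (without WT day 0 library a, adjusted p = 0.131) in SMADi were lost when single libraries were left out. In the 4 low host genes SNHG22, SNHG25, SNHG28 and SNHG31, no library passed 3.48 CPM in the differentiation part, and their fold changes rest on few counts.

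**Figure D2:**
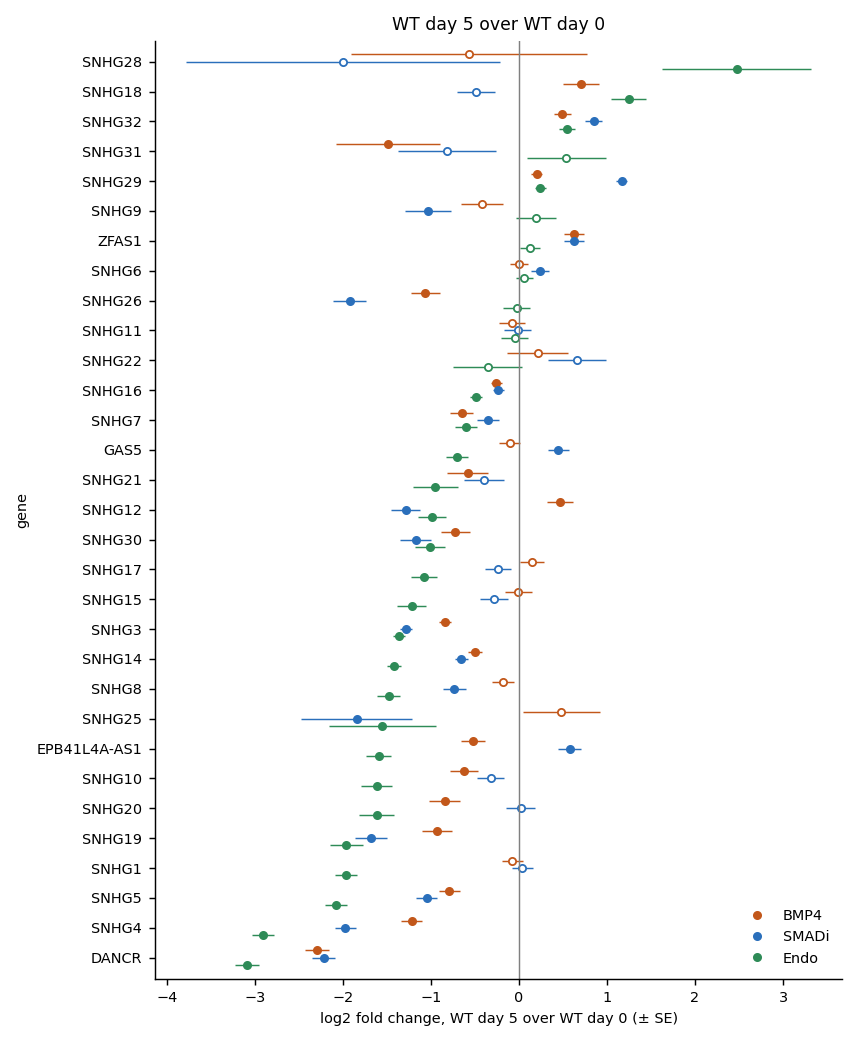
Log2 fold change ± SE at day 5 against day 0 in WT cells for the 31 tested host genes (rows), in Endo, BMP4 and SMADi. Filled points passed the adjusted p threshold. DANCR is the lowest in all 3 protocols, and SNHG28, SNHG31 and SNHG25 have the widest errors.

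The daily values were compared too. Among the 16 WT groups, 9 of the 32 host genes had their highest mean on day 1 of BMP4 and 8 on day 4 of SMADi, and 23 had their lowest mean on days 2 to 5 of Endo, 10 of them on day 3. The 32 include SNHG27, which was not tested. The same was not counted over all genes, so these numbers cannot show a pattern particular to the host genes. Against day 0, 5 host genes rose and 4 fell on day 1 of Endo (all genes, 48.4%), and 3 rose and 24 fell on day 2 (all genes, 56.7%). In BMP4, 7 rose and 1 fell on day 1 (all genes, 29.6%), and 1 rose and 16 fell on day 2 (all genes, 32.0%). In SMADi, 1 rose and 10 fell on day 1 (all genes, 44.9%), 1 rose and 20 fell on day 2 (all genes, 37.2%), and 8 rose and 10 fell on day 4 (all genes, 46.6%).

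The protocols were also compared directly at day 5. Against BMP4, Endo cells had 5 host genes higher and 18 lower (all genes, 58.3%; median of host genes -0.57, of all genes -0.06). Against SMADi, Endo cells had 5 higher and 17 lower (all genes, 59.5%; medians -0.50 and -0.06). SNHG1 was lower in Endo than in BMP4 (-1.89 ± 0.12, adjusted p = 1.09e-19) and than in SMADi (-2.003 ± 0.12, adjusted p = 8.73e-21), and EPB41L4A-AS1 was lower in Endo than in SMADi (-2.17 ± 0.14, adjusted p = 1.22e-19). SNHG26 went the other way: it measured 14.0 and 15.3 CPM in Endo against 3.63 and 4.21 CPM in SMADi (1.90 ± 0.18, adjusted p = 2.56e-13). Between SMADi and BMP4, 6 host genes were higher in SMADi and 10 lower (all genes, 53.9%), with EPB41L4A-AS1 higher in SMADi (1.10 ± 0.13, adjusted p = 5.46e-10) and SNHG12 lower (-1.75 ± 0.16, adjusted p = 7.38e-14).

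Related gene lists were counted beside the host genes. Of 79 tested ribosomal protein genes, 0 rose and 67 fell at day 5 of Endo, 24 rose and 0 fell in BMP4, and 63 rose and 1 fell in SMADi. Their median was -0.48 in Endo, 0.22 in BMP4 and 0.50 in SMADi, so in BMP4 and SMADi it had the opposite sign to the median of the host genes. Of 8 core proteins of snoRNA particles (such as FBL and DKC1), 6 fell and 0 rose in Endo, 3 fell and 1 rose in BMP4, and 7 fell and 0 rose in SMADi. Of 19 protein-coding snoRNA hosts, 2 rose and 13 fell in Endo, 4 rose and 3 fell in BMP4, and 9 rose and 8 fell in SMADi. The level of MYC, a transcription factor of growth genes, was 4.11 and 4.88 CPM at day 5 of Endo, 49.9 and 46.1 in BMP4 and 15.9 and 16.1 in SMADi, against 57.8 and 65.2 CPM at day 0. Of 10 nonsense-mediated decay factors, 6 rose and 3 fell in Endo, 3 rose and 0 fell in BMP4, and 6 rose and 0 fell in SMADi. The part of any of these in the levels of the host genes was not tested.

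The next comparison asked whether the edits change the host genes in stem cells. At day 0, KO cells had 0 host genes higher and 2 lower than WT cells, where 4.89% of all genes were called, and at an unadjusted p under 0.05 there were 7. ΔATG cells had 5 higher and 2 lower (all genes, 5.50%; 15 at an unadjusted p under 0.05). Both edited lines share the 2 WT libraries, which differed from each other in several host genes. SNHG1 measured 243 and 208 CPM in KO cells and 380.2 and 326 CPM in ΔATG cells, against 180.1 and 287 CPM in WT cells. Every ΔATG library was above both WT libraries, and the difference was called (0.59 ± 0.12, adjusted p = 6.75e-04), but the gap between the WT libraries was wider than that between the nearest libraries of the 2 groups. SNHG17, host of the SNORA71 family, rose in ΔATG cells (0.79 ± 0.14, adjusted p = 9.16e-05), with 45.8 and 33.98 CPM in ΔATG cells against 18.6 and 27.6 CPM in WT cells.

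SNHG3, host of SNORA73A and SNORA73B, was the only host gene called in both lines at day 0. It measured 107 and 106 CPM in KO cells and 93.8 and 97.1 CPM in ΔATG cells, against 140.1 and 116 CPM in WT cells. Every edited library was below both WT libraries. The difference was -0.27 ± 0.07 in KO (adjusted p = 0.0117) and -0.43 ± 0.07 in ΔATG (adjusted p = 2.65e-05). SNHG12 fell in KO cells (-0.55 ± 0.16, adjusted p = 0.0247), at 19.2 and 17.5 CPM against 28.2 and 25.7 CPM in WT cells, and none of its libraries overlapped. EPB41L4A-AS1 rose in ΔATG cells (0.48 ± 0.13, adjusted p = 0.0200), at 67.8 and 59.8 CPM against 39.4 and 52.2 CPM in WT cells. SNHG32 rose in ΔATG cells (0.68 ± 0.09, adjusted p = 1.29e-06), at 118 and 103 CPM against 58.6 and 79.7 CPM in WT cells, as did SNHG15 (0.53, adjusted p = 0.0296), and SNHG16 fell (-0.36, adjusted p = 1.20e-04). The ΔATG libraries of these genes lay outside the WT range. DANCR (-0.04 in KO, -0.11 in ΔATG), GAS5 (0.11 and 0.30) and ZFAS1 (0.18 and 0.31) were not called.

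The day 0 counts turned on single libraries and on the letter of the library. At day 0 the a and b libraries of the 3 lines deviated together (correlation of the deviations 0.371 to 0.743). With the letter as a block within day 0, 1 host gene was higher and 5 were lower in KO (2835 of all 25821 genes called), and 9 were higher and 4 lower in ΔATG (2554 of all genes). In KO the count was 0 without KO library b or WT library a, 4 without KO library a and 7 without WT library b. In ΔATG it was 1 without WT library a and 11 without WT library b. The call of SNHG32 in ΔATG was the only one at day 0 kept in every refit without 1 library. With the block, GAS5 and ZFAS1 in ΔATG and ZFAS1 in KO were also called higher. Fitted on the 4 libraries of each comparison alone, no host gene was called in either line. Over all genes that fit called 3 in KO and 2 in ΔATG, against 1263 and 1420 with the spread taken over all 48 groups.

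During differentiation the direction of the difference depended on the protocol. Averaged over days 1 to 5 of BMP4, 15 host genes were higher and 1 lower in KO than in WT cells (51.6% called, all genes 28.7% in either direction and 13.3% higher). In ΔATG cells 12 were higher and 1 lower (41.9% called, all genes 17.0%). The changes were small: the median was 0.15 in KO and 0.11 in ΔATG, against 0.00 for all genes in both. Of 79 ribosomal protein genes, 33 rose and 0 fell in KO, and 10 rose and 0 fell in ΔATG. The lone host gene that fell was SNHG18 in both lines, by 0.50 on the log2 scale in KO (adjusted p = 2.92e-05) and by 0.41 in ΔATG (adjusted p = 7.94e-04).

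DANCR rose in BMP4 in KO (0.45 ± 0.06, adjusted p = 4.94e-09) and in ΔATG (0.26 ± 0.06, adjusted p = 5.73e-04). On day 4 it measured 85.7 and 97.3 CPM in KO cells and 63.8 and 87.6 CPM in ΔATG cells, against 45.9 and 69.4 CPM in WT cells. Both KO libraries were above both WT libraries, and one ΔATG library lay inside the WT range. The values of single libraries are those of day 4, the day with the most host genes called in KO cells. SNHG4 rose in KO (0.44 ± 0.05, adjusted p = 3.99e-10) and ΔATG (0.36 ± 0.05, adjusted p = 1.54e-07), with 62.0 and 48.5 CPM in KO and 51.0 and 44.0 CPM in ΔATG on day 4, against 34.4 and 36.3 CPM in WT, and no edited library overlapped WT.

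SNHG14 rose in KO (0.27 ± 0.03, adjusted p = 3.62e-09) and ΔATG (0.26 ± 0.03, adjusted p = 1.89e-08), at 705 and 594 CPM in KO and 621 and 576 CPM in ΔATG on day 4, against 531 and 507 CPM in WT, without overlap. SNHG1 measured 270.2 and 303 CPM in KO and 225 and 282 CPM in ΔATG on day 4, against 189 and 238 CPM in WT, and rose over the 5 days by 0.26 in KO (adjusted p = 1.04e-04) and 0.17 in ΔATG (adjusted p = 0.0193). One ΔATG library of SNHG1 lay inside the WT range on that day. GAS5 measured 294 and 361 CPM in KO and 277 and 368 CPM in ΔATG on day 4, against 217 and 305 CPM in WT, and rose by 0.19 in KO (adjusted p = 0.00369) and 0.15 in ΔATG (adjusted p = 0.0438). In GAS5 and ZFAS1 the a library of each edited line lay inside the WT range and the b library above it, and library b was the higher one in WT too. ZFAS1, at 148 and 174 CPM in KO and 145 and 188 CPM in ΔATG against 125 and 166 CPM in WT, rose in KO (0.13, adjusted p = 0.0415), while the ΔATG difference was not called (0.09, adjusted p = 0.251). Within each letter, the KO and ΔATG libraries of DANCR, SNHG1, GAS5 and ZFAS1 were above the WT library on that day. With the letter as a block for each protocol, 18 host genes were higher and 1 lower in KO (8855 of all 25821 genes called) and 15 and 1 in ΔATG (5927 of all genes), and ZFAS1 was called in ΔATG too. EPB41L4A-AS1 rose by 0.17 in KO (adjusted p = 0.0226) and 0.25 in ΔATG (adjusted p = 0.00141). SNHG18 measured 10.0 and 16.4 CPM in KO and 16.6 and 17.5 CPM in ΔATG on day 4, against 21.4 and 22.1 CPM in WT, so that every edited library was below WT. SNHG19 rose in KO alone (0.36 ± 0.08, adjusted p = 1.69e-04; ΔATG 0.11).

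DANCR and SNHG4 are among the genes that fell as WT cells differentiated, and the markers of the protocol differed too. On day 5 the mesoderm markers (TBXT, MIXL1 and HAND1) summed to 62.6 and 94.9 CPM in KO and 176 and 139.5 CPM in ΔATG, against 237 and 268 CPM in WT, with 3 of 3 below WT in both KO libraries and 2 of 3 in both ΔATG libraries. Amnion markers were below WT for 3 of 3 in both lines (52.4 and 54.4 CPM in KO, 92.3 and 75.1 CPM in ΔATG, 162 and 159 CPM in WT). Endoderm markers were below for 3 of 3 in KO and 2 of 3 in ΔATG. Neuroectoderm markers were above for 3 of 3 in both lines, with SOX1 at 0 in WT. The pluripotency markers (POU5F1, SOX2 and NANOG) summed to 1676 and 1834 CPM in KO and 1658 and 1674 CPM in ΔATG, against 1430.1 and 1427 CPM in WT. The part of these differences in the host gene levels was not tested. By single days, KO cells had no host gene called by edgeR on day 1 of BMP4, none of them with an unadjusted p under 0.05 (all genes, 1.27%). They had 2 higher and 1 lower on day 2 (all genes, 8.20%), 6 and 0 on day 3 (9.86%), 8 and 1 on day 4 (15.6%) and 4 and 1 on day 5 (22.3%). ΔATG cells were called lower than KO cells for DANCR, SNHG19 and SNHG30 and higher for none (all genes, 13.6%). Fitted on the BMP4 groups compared alone, 8 host genes were higher and 1 lower in KO (5277 of all 25821 genes called). In that fit 3 were higher and 1 lower in ΔATG (2608 of all genes), and none differed between the lines (1669 of all genes). The KO count was 10 without KO day 4 library b. The count between KO and ΔATG was 0 without that library, KO day 3 library b or ΔATG day 4 library a and 1 without ΔATG day 3 library a. Calls lost when single libraries were left out were those of ZFAS1 (in 10 of 20 refits, adjusted p up to 0.166 without WT BMP4 day 4 library a), EPB41L4A-AS1 (in 7 of 20 refits, adjusted p up to 0.0946 without WT BMP4 day 4 library a), SNHG12 (in 6 of 20 refits, adjusted p up to 0.106 without KO BMP4 day 4 library b), SNHG5 (in 5 of 20 refits, adjusted p up to 0.0747 without KO BMP4 day 3 library b), SNHG6 (in 4 of 20 refits, adjusted p up to 0.127 without KO BMP4 day 4 library b) and SNHG30 (in 4 of 20 refits, adjusted p up to 0.135 without KO BMP4 day 4 library b) in KO and of SNHG1 (in 9 of 20 refits, adjusted p up to 0.0957 without WT BMP4 day 4 library a), GAS5 (in 10 of 20 refits, adjusted p up to 0.221 without WT BMP4 day 4 library a), SNHG6 (without WT BMP4 day 4 library a or ΔATG BMP4 day 4 library b, adjusted p up to 0.0854) and SNHG7 (in 11 of 20 refits, adjusted p up to 0.159 without WT BMP4 day 4 library a) in ΔATG. Between ΔATG and KO the call of DANCR was lost in 5 of 20 refits, that of SNHG19 in 6 of 20 and that of SNHG30 in 4 of 20.

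In SMADi the direction was the reverse. Averaged over days 1 to 5, 2 host genes were higher and 17 lower in KO than in WT cells (61.3% called, all genes 45.6% in either direction and 24.6% lower), and in ΔATG cells 2 were higher and 15 lower (54.8% called, all genes 45.2%). The median was -0.19 in KO and -0.19 in ΔATG, against -0.01 and -0.01 for all genes. Of 79 ribosomal protein genes, 0 rose and 75 fell in KO and 0 rose and 74 fell in ΔATG. Between ΔATG and KO cells no host gene was called by edgeR (all genes, 1.07%), with 3 at an unadjusted p under 0.05. DESeq2 and limma voom called none either, and the fit of the groups compared alone and that with the library letter as a block within each protocol called 1 each, higher in ΔATG.

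SNHG26 fell deepest. On day 4 it measured 1.44 and 1.81 CPM in KO cells and 1.68 and 1.87 CPM in ΔATG cells, against 6.49 and 7.38 CPM in WT cells. Every edited library was far below the WT libraries on that day, while on day 1 the values were 7.52 and 8.27 CPM in KO and 7.45 and 7.76 CPM in ΔATG, against 8.37 and 7.65 CPM in WT. Over the 5 days the difference was -0.99 ± 0.09 in KO (adjusted p = 2.89e-13) and -1.02 ± 0.10 in ΔATG (adjusted p = 1.62e-13). EPB41L4A-AS1 measured 44.1 and 44.2 CPM in KO and 44.7 and 45.2 CPM in ΔATG on day 4, against 86.0 and 82.1 CPM in WT cells. The peak that WT cells showed on that day was absent from both edited lines, and over the 5 days the gene fell in KO (-0.44 ± 0.06, adjusted p = 1.70e-08) and ΔATG (-0.43 ± 0.06, adjusted p = 3.06e-08).

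**Figure D3:**
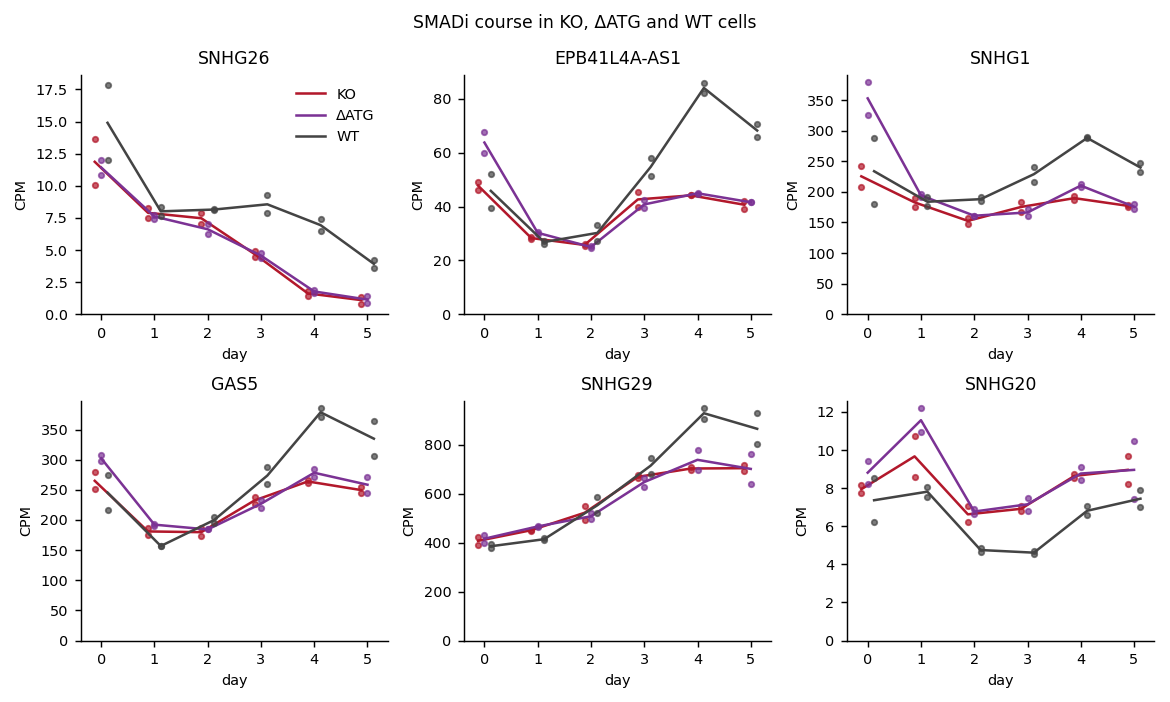
CPM of 6 host genes on days 0 to 5 (x axis, days) of SMADi in KO, ΔATG and WT cells. Points are single libraries and lines join the means of 2 libraries. The WT line for EPB41L4A-AS1, SNHG1, GAS5 and SNHG29 stands above both edited lines on day 4, and that for SNHG20 below them.

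GAS5 and SNHG1 fell less deeply. GAS5 measured 266 and 262 CPM in KO and 271 and 285 CPM in ΔATG cells on day 4, against 386 and 371 CPM in WT cells, and fell over the 5 days in KO (-0.23 ± 0.05, adjusted p = 3.85e-04) and ΔATG (-0.18 ± 0.05, adjusted p = 0.00388). SNHG1 measured 193 and 187 CPM in KO and 207 and 213 CPM in ΔATG cells on day 4, against 289 and 287 CPM in WT cells. Edited and WT libraries of these 2 genes did not overlap on that day, and SNHG1 fell over the 5 days in KO (-0.35 ± 0.05, adjusted p = 1.88e-07) and ΔATG (-0.30 ± 0.05, adjusted p = 3.44e-06). ZFAS1 measured 114 and 112 CPM in KO and 107 and 118 CPM in ΔATG on day 4, against 154 and 143 CPM in WT, and fell over the 5 days in KO (-0.21, adjusted p = 4.41e-04) and ΔATG (-0.19, adjusted p = 0.00181). SNHG7 measured 27.2 and 29.8 CPM in KO and 32.5 and 35.9 CPM in ΔATG on day 4, against 56.5 and 55.0 CPM in WT, and SNHG18 7.40 and 6.23 CPM in KO and 3.96 and 8.58 CPM in ΔATG, against 12.5 and 13.0 CPM in WT. For these 3 genes no edited library reached the WT range, and over the 5 days SNHG7 (-0.36 in KO and -0.28 in ΔATG) and SNHG18 (-0.43 and -0.42) fell in both lines. SNHG29 fell by 0.15 on the log2 scale in each line. DANCR fell in KO by 0.14 on the log2 scale (adjusted p = 0.0377), while the ΔATG difference was not called (-0.11, adjusted p = 0.103).

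The 2 host genes that rose were the same in both lines. SNHG20 measured 8.74 and 8.54 CPM in KO and 8.42 and 9.12 CPM in ΔATG cells on day 4, against 6.56 and 7.06 CPM in WT cells, and rose over the 5 days in KO (0.40 ± 0.08, adjusted p = 1.72e-05) and ΔATG (0.47 ± 0.08, adjusted p = 5.63e-07). SNHG30 rose in KO (0.22, adjusted p = 0.0249) and ΔATG (0.19, adjusted p = 0.0489). Both lines share their WT libraries, so the likeness of their values is not independent. By single days the calls lay late: KO cells had no host gene called by edgeR on day 1, with 1 at an unadjusted p under 0.05 (all genes, 8.64%). They had 0 higher and 1 lower on day 2 (all genes, 14.7%), 2 and 7 on day 3 (30.6%), 0 and 17 on day 4 (36.1%) and 3 and 12 on day 5 (35.2%).

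Markers moved with the edits in SMADi as well. On day 5 the neuroectoderm markers (PAX6, SOX1 and OTX2) summed to 1073 and 1127 CPM in KO and 949 and 1022 CPM in ΔATG, against 443 and 463 CPM in WT, with 3 of 3 above WT in every edited library. The pluripotency markers summed to 691 and 668 CPM in KO and 725 and 735 CPM in ΔATG, against 774 and 784 CPM in WT, with 1 of 3 above and 2 of 3 below WT in both lines. On day 3 the pluripotency sums were 996 and 1002 CPM in KO and 984 and 987 CPM in ΔATG, against 1582 and 1640.3 CPM in WT. Mesoderm markers (at most 3.01 CPM in sum), endoderm markers (at most 0.220 CPM, SOX17 and FOXA2 at 0 in WT, FOXA2 at 0 in KO) and amnion markers (at most 1.78 CPM) were near 0 in all 3 lines on day 5. The part of these differences in the host gene levels was not tested. The KO and ΔATG counts stayed between 13 and 19 whichever library was left out. Single libraries ended the calls of DANCR (in 14 of 20 refits, adjusted p up to 0.0976 without WT SMADi day 1 library b), SNHG5 (in 17 of 20 refits, adjusted p up to 0.181 without WT SMADi day 5 library b) and SNHG30 (in 5 of 20 refits, adjusted p up to 0.0653 without KO SMADi day 4 library a) in KO and of SNHG12 (in 10 of 20 refits, adjusted p up to 0.0940 without ΔATG SMADi day 5 library b), SNHG14 (in 13 of 20 refits, adjusted p up to 0.117 without ΔATG SMADi day 2 library a), SNHG15 (in 6 of 20 refits, adjusted p up to 0.0838 without WT SMADi day 2 library a) and SNHG30 (in 14 of 20 refits, adjusted p up to 0.130 without ΔATG SMADi day 5 library a) in ΔATG.

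In Endo fewer host genes were called, and in neither line did their share pass that of all genes. In KO cells GAS5 alone was called, higher (0.15 ± 0.05, adjusted p = 0.0478), where 14.8% of all genes were called, and 8 host genes had an unadjusted p under 0.05. In ΔATG cells 8 were higher and 2 lower (32.3% called, all genes 33.8%), with a median of 0.08 against 0.02 for all genes. Of 79 ribosomal protein genes, 0 rose and 0 fell in KO by edgeR (1 at an unadjusted p under 0.05) and 6 rose and 1 fell in ΔATG. GAS5 measured 141 and 133 CPM in KO and 145 and 147 CPM in ΔATG cells on day 3, against 113 and 118 CPM in WT cells. Every edited library was above both WT libraries. It rose in ΔATG over the 5 days (0.25 ± 0.05, adjusted p = 2.06e-04), as did SNHG20 (0.31 ± 0.10, adjusted p = 0.00958), SNHG1 (0.21 ± 0.05, adjusted p = 0.00127) and EPB41L4A-AS1 (0.21, adjusted p = 0.0103). SNHG9 fell (-0.35 ± 0.12, adjusted p = 0.0157), at 2.06 and 2.19 CPM in ΔATG on day 3 against 2.93 and 2.80 CPM in WT, and so did SNHG14 (-0.09), at 359 and 348 CPM against 400.4 and 376 CPM in WT. No ΔATG library of these 2 genes reached the WT range. DANCR (-0.17 in KO, -0.04 in ΔATG) and ZFAS1 (0.01 and 0.12) were not called in either line. Against KO cells, ΔATG cells had 5 host genes higher and 0 lower (all genes, 18.4%), with SNHG10 (0.31 ± 0.09) and SNHG1 (0.25 ± 0.05) the highest. SNHG10 measured 3.87 and 3.65 CPM in ΔATG on day 3 against 2.74 and 3.02 CPM in KO, and SNHG1 70.9 and 71.3 CPM in ΔATG against 63.3 and 57.8 CPM in KO, without overlap.

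On day 5 of Endo the endoderm markers (SOX17, CER1 and FOXA2) summed to 12058 and 12216 CPM in KO and 8261 and 7499 CPM in ΔATG, against 12683 and 12252 CPM in WT, with 3 of 3 below WT in ΔATG and 2 of 3 in KO. The pluripotency sums were 20.7 and 21.2 CPM in KO and 47.4 and 51.8 CPM in ΔATG, against 12.4 and 12.1 CPM in WT. Mesoderm markers were below WT for 3 of 3 in both lines (163 and 151 CPM in KO, 167 and 152 CPM in ΔATG, 222 and 227 CPM in WT). Amnion markers summed to 48.4 and 48.4 CPM in KO and 82.3 and 90.0 CPM in ΔATG, against 43.4 and 44.3 CPM in WT, with 2 of 3 above WT in both lines. Neuroectoderm sums were 861 and 871 CPM in KO and 734 and 724 CPM in ΔATG, against 812 and 804 CPM in WT, with SOX1 at 0 in KO and WT. The part of these differences in the host gene levels was not tested. The KO call of GAS5 did not hold: it was lost in 19 of 20 refits without 1 library (adjusted p up to 0.113), and the KO count ran from 0 to 3 over the left-out libraries (2 without WT day 1 library b, 3 without WT day 3 library b), and from 0 to 7 over the other settings. In ΔATG single libraries ended the calls of SNHG20 (without WT Endo day 5 library b, adjusted p = 0.0514), SNHG10 (in 9 of 20 refits, adjusted p up to 0.106 without WT Endo day 3 library a), SNHG9 (in 4 of 20 refits, adjusted p up to 0.0588 without WT Endo day 1 library a) and SNHG14 (in 10 of 20 refits, adjusted p up to 0.0874 without WT Endo day 2 library a), 4 of the 10.

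The dependence on protocol was tested directly, with a joint F test that the mean effect over days 1 to 5 is equal in BMP4, SMADi and Endo. It was called for 21 of 31 host genes in KO (67.7%, all genes 47.4%) and for 19 in ΔATG (61.3%, all genes 48.1%). Of these, 11 in KO and 9 in ΔATG were called in opposite directions in 2 protocols. The share of all genes called in opposite directions was not computed, so these counts have no background beside them. EPB41L4A-AS1 showed this in both lines: KO over WT was 0.17 in BMP4, -0.44 in SMADi and 0.06 in Endo (adjusted p = 3.12e-08), and ΔATG over WT was 0.25, -0.43 and 0.21 in the same order (adjusted p = 5.52e-10). SNHG1 was 0.26, -0.35 and -0.04 in KO (adjusted p = 6.54e-09) and 0.17, -0.30 and 0.21 in ΔATG (adjusted p = 3.29e-08). GAS5 was 0.19, -0.23 and 0.15 in KO (adjusted p = 4.61e-06) and 0.15, -0.18 and 0.25 in ΔATG (adjusted p = 7.80e-06). SNHG26 was 0.00 in BMP4, -0.99 in SMADi and 0.18 in Endo in KO (adjusted p = 5.50e-12), and only the SMADi value was called. SNHG18 fell in BMP4 and SMADi in both lines, with 0.12 in KO and -0.03 in ΔATG in Endo (adjusted p = 7.91e-05 in KO and 0.0144 in ΔATG).

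**Figure D4:**
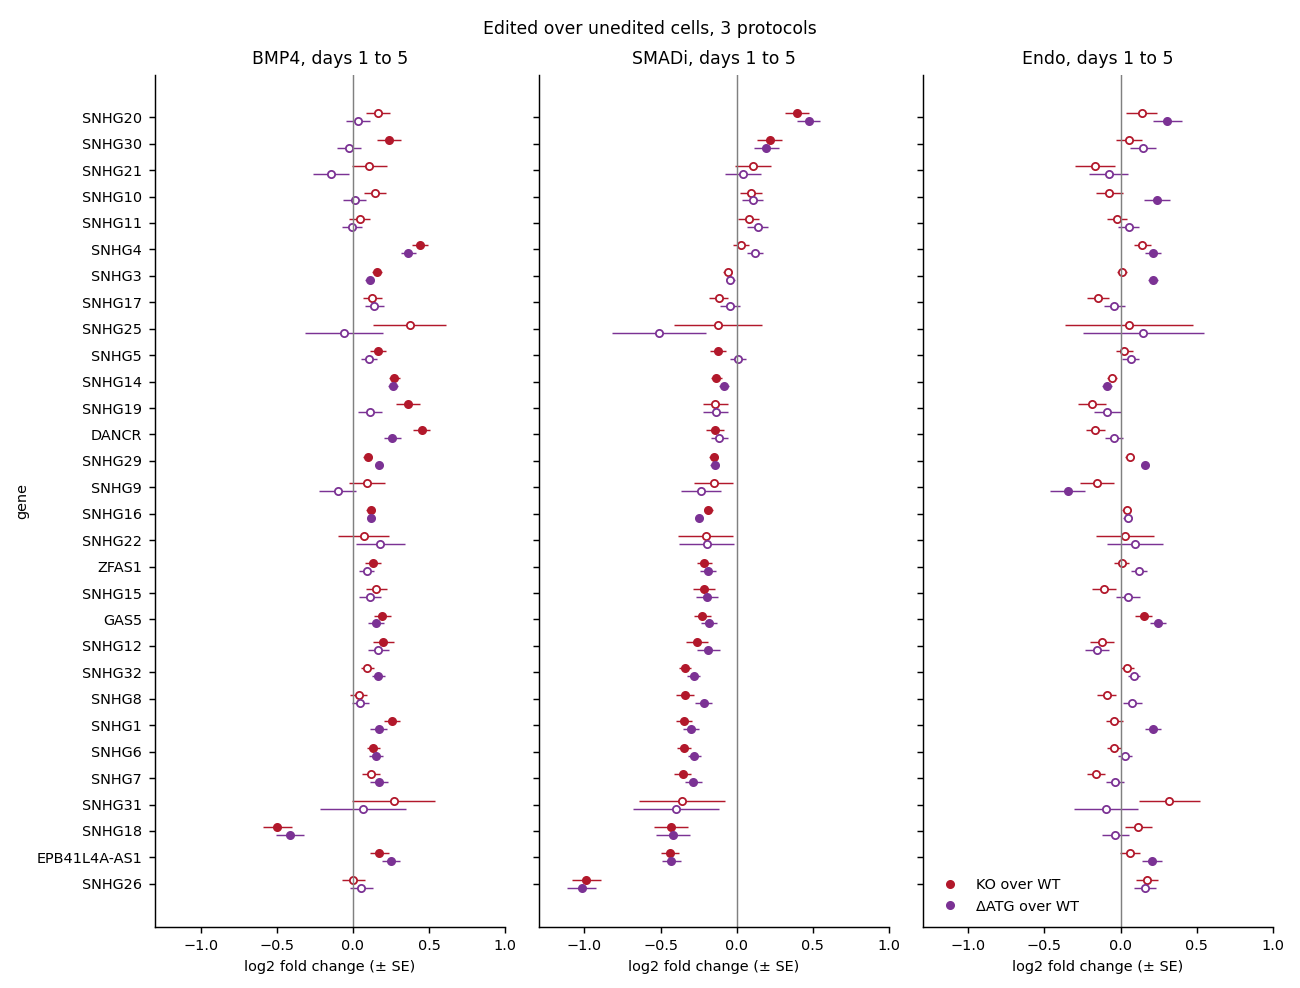
Log2 fold change ± SE averaged over days 1 to 5, KO over WT and ΔATG over WT, for 30 tested host genes (rows) in BMP4, SMADi and Endo; SNHG28 is left out because of its few counts. Filled points passed the adjusted p threshold. Most filled points lie above 0 in BMP4 and below 0 in SMADi, with SNHG26 lowest in SMADi.

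The overexpression part compared cells carrying each construct with cells carrying the vector. LNCPRESS1 itself was not called with lncPRESS1 at the early (0.54, adjusted p = 0.296) or the middle stage (0.44, adjusted p = 0.0843) and rose late (2.22, adjusted p = 1.53e-05). It rose with lncPRESS1ΔATG at each stage (2.34 early, 1.39 in the middle and 2.24 late). With lncSIRP it rose early (2.43), fell in the middle (-1.64) and was not called late (0.11), so a mean over the stages does not compare cells with more of this RNA throughout. Averaged over the 3 stages against the vector, 5 host genes were higher and 5 lower with lncPRESS1 (all genes, 45.8%), 8 higher and 1 lower with lncPRESS1ΔATG (all genes, 25.8%), and 10 higher and 1 lower with lncSIRP (all genes, 50.1%). So 10 of 31 host genes were called with lncPRESS1, 9 with lncPRESS1ΔATG and 11 with lncSIRP, a share above that of all genes only with lncPRESS1ΔATG. The 3 constructs share the vector libraries. In the vector libraries themselves no host gene was called between the late and the early stage by edgeR (all genes, 0.129%; 6 at an unadjusted p under 0.05). DESeq2 called 2 higher and 1 lower there, and limma voom called 0.

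SNHG12 rose with every construct. It measured 16.9 and 23.8 CPM with lncPRESS1, 25.6 and 25.9 CPM with lncPRESS1ΔATG and 26.1 and 24.6 CPM with lncSIRP at the early stage, against 14.3 and 12.9 CPM with the vector. At the middle stage it measured 24.8 and 22.8 CPM with lncPRESS1, 14.6 and 34.3 CPM with lncPRESS1ΔATG and 28.9 and 27.0 CPM with lncSIRP, against 17.5 and 12.2 CPM with the vector. At the late stage it measured 31.7 and 33.9 CPM with lncPRESS1, 28.1 and 27.9 CPM with lncPRESS1ΔATG and 32.8 and 39.9 CPM with lncSIRP, against 15.9 and 20.1 CPM with the vector. Every construct library was above both vector libraries of its stage, except for lncPRESS1ΔATG library a at the middle stage. Over the stages the rise was 0.71 ± 0.16 with lncPRESS1 (adjusted p = 0.00142), 0.76 ± 0.16 with lncPRESS1ΔATG (adjusted p = 0.00146) and 0.95 ± 0.16 with lncSIRP (adjusted p = 8.36e-05). SNHG7, host of SNORA17A, also rose with each construct, by 0.39, 0.32 and 0.58 in the same order. At the late stage SNHG7 measured 35.2 and 41.3 CPM with lncPRESS1, 36.5 and 36.8 CPM with lncPRESS1ΔATG and 38.9 and 42.7 CPM with lncSIRP, against 27.6 and 29.2 CPM with the vector, without overlap. SNHG26 measured 7.49 and 10.7, 9.02 and 10.1 and 13.1 and 13.0 CPM with lncPRESS1ΔATG at the early, middle and late stage, against 14.4 and 14.4, 15.8 and 18.2 and 17.6 and 18.1 CPM with the vector. It was below the vector in every lncPRESS1ΔATG library, and fell (-0.65 ± 0.10, adjusted p = 1.54e-04) and was not called with lncPRESS1 (-0.06) or lncSIRP (0.11).

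The middle stage stood apart for lncPRESS1 and lncSIRP. GAS5 measured 96.6 and 85.5 CPM with lncPRESS1 and 112 and 97.7 CPM with lncSIRP at that stage, against 215 and 178 CPM with the vector. At the late stage GAS5 measured 147 and 145 CPM with lncPRESS1 and 141 and 145 CPM with lncSIRP, against 173 and 162 CPM with the vector. Every one of these libraries was below both vector libraries of its stage, but the late difference was not called (-0.19 with lncPRESS1, adjusted p = 0.342; -0.23 with lncSIRP, adjusted p = 0.267). At the early stage GAS5 was above the vector, at 262 and 356 CPM with lncPRESS1 and 354 and 401 CPM with lncSIRP against 212 and 209 CPM with the vector. DANCR measured 85.2 and 81.1 CPM with lncPRESS1 and 101 and 99.9 CPM with lncSIRP at the middle stage, against 127 and 147 CPM with the vector, and SNHG4 41.3 and 41.3 CPM with lncPRESS1 and 56.6 and 51.6 CPM with lncSIRP, against 89.4 and 89.6 CPM with the vector. Both genes were lower than the vector in every such library. At the middle stage 3 host genes were higher and 10 lower with lncPRESS1 (all genes, 58.1%) and 3 higher and 10 lower with lncSIRP (all genes, 60.4%). At the late stage 5 were called with lncPRESS1 (all genes, 22.6%) and 3 with lncSIRP (all genes, 21.4%), each of them higher.

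Those middle libraries differed from the vector in their markers too. The pluripotency markers summed to 275 and 289 CPM with lncPRESS1 and 338 and 327 CPM with lncSIRP, against 2843 and 2952 CPM with the vector, with 3 of 3 below it. Mesoderm markers summed to 533 and 515 CPM with lncPRESS1 (3 of 3 above) and 383 and 392 CPM with lncSIRP (2 of 3 above), against 23.9 and 17.8 CPM with the vector. Amnion and endoderm markers were above the vector for 3 of 3 with both constructs, and neuroectoderm markers for 2 of 3. LNCPRESS1 itself was at 55.1 and 58.6 CPM with lncPRESS1 and 13.7 and 13.3 CPM with lncSIRP, against 47.8 and 36.3 CPM with the vector. At the late stage mesoderm and endoderm markers were above the vector for 3 of 3 with both constructs, and amnion markers for 0 of 3. The late mesoderm sums were 98.8 and 46.4 CPM with lncPRESS1 and 113 and 80.4 CPM with lncSIRP. The vector had 26.8 and 31.7 CPM. The late endoderm sums were 66.2 and 47.7 CPM and 90.1 and 82.9 CPM, against 36.7 and 33.6 CPM. The part of these differences in the host gene levels was not tested. Of 79 ribosomal protein genes, 57 fell with lncPRESS1 and 55 with lncSIRP at the middle stage, and 33 and 31 rose at the late stage.

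The difference between stages was called for 9 host genes with lncPRESS1 (all genes, 48.2%), 2 with lncPRESS1ΔATG (all genes, 16.4%) and 15 with lncSIRP (all genes, 48.1%). EPB41L4A-AS1 was among them for each construct. It measured 54.4 and 56.5, 15.9 and 17.6 and 26.9 and 29.5 CPM with lncSIRP at the early, middle and late stage, against 32.5 and 32.9, 45.8 and 35.2 and 26.5 and 31.1 CPM with the vector. With lncSIRP both libraries were above the vector at the early stage and below it at the middle stage, and the groups overlapped at the late stage. Against the vector lncSIRP gave 0.76 early, -1.27 in the middle and -0.03 late (adjusted p = 4.49e-05 for the difference between stages).

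With the early stage alone, lncPRESS1ΔATG had 12 host genes higher and 2 lower (all genes, 26.3%), lncSIRP 13 and 0 (all genes, 10.8%) and lncPRESS1 1 and 0 (all genes, 0.412%). SNHG1 measured 279 and 344 CPM with lncPRESS1ΔATG, 275 and 303 CPM with lncSIRP and 198 and 249 CPM with lncPRESS1 at that stage, against 164 and 153 CPM with the vector. Every construct library was above both vector libraries at that stage. Markers differed there too. Endoderm markers summed to 0.363 and 0.425 CPM with lncPRESS1ΔATG, 3.12 and 2.53 CPM with lncSIRP and 13.9 and 6.51 CPM with lncPRESS1, against 28.1 and 28.4 CPM with the vector, with 3 of 3 below it for each construct. Mesoderm markers summed to 2.85 and 2.93 CPM with lncPRESS1ΔATG (1 of 3 above, 2 below) and 22.9 and 20.4 CPM with lncSIRP (1 of 3 above, 1 below). With lncPRESS1 they summed to 9.33 and 24.2 CPM (0 of 3 above, 1 below), against 17.8 and 16.5 CPM with the vector. The pluripotency sums were 2956 and 2624 CPM with lncPRESS1ΔATG, 3606 and 3661 CPM with lncSIRP and 3239 and 3609.6 CPM with lncPRESS1, against 2943 and 3058 CPM with the vector. With lncPRESS1ΔATG the endoderm and mesoderm sums were at most 2.12 CPM at the middle and late stages, against at least 17.8 CPM with the vector. The part of these differences in the host gene levels was not tested. At the middle stage the lncPRESS1ΔATG libraries of SNHG1 stood far apart, at 167 and 429.6 CPM, and those of the vector did too, at 263 and 153 CPM. It rose over the stages with lncPRESS1ΔATG (0.55 ± 0.17, adjusted p = 0.0211) and was not called with lncPRESS1 (0.13) or lncSIRP (0.32).

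Set directly against lncPRESS1, lncPRESS1ΔATG had 10 host genes higher and 2 lower over the stages (all genes, 46.0%). DANCR (0.44 ± 0.07, adjusted p = 3.81e-05), GAS5 (0.47 ± 0.08, adjusted p = 1.35e-04), EPB41L4A-AS1 (0.51 ± 0.11, adjusted p = 0.00136) and SNHG4 (0.48 ± 0.08, adjusted p = 1.56e-04) were higher, and SNHG26 (-0.59 ± 0.11, adjusted p = 1.81e-04) and SNHG3 (-0.21) lower. DANCR measured 156 and 147 CPM with lncPRESS1ΔATG at the middle stage, against 85.2 and 81.1 CPM with lncPRESS1. At the late stage the levels of DANCR were 173 and 181 CPM with lncPRESS1ΔATG and 161 and 177 CPM with lncPRESS1, and overlapped.

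Several overexpression values rested on a stage. Without the middle stage, 3 of 31 host genes were called between lncPRESS1ΔATG and lncPRESS1 (1 higher, 2 lower, with 4393 of all 23300 genes called). The values of DANCR, GAS5, SNHG4 and SNHG5 with lncPRESS1 against the vector turned positive. Against the vector, lncPRESS1 then had 7 host genes higher and 1 lower (3597 of all genes called). Without the early stage, 4 host genes were higher and 8 lower with lncSIRP against the vector, so that its split turned round (12682 of all 23300 genes called). The counts were 4 and 8 with lncPRESS1 (12390 of all genes), and 1 and 1 with lncPRESS1ΔATG (5057 of all genes). Fitted on the groups compared alone, 5 were higher and 1 lower with lncPRESS1ΔATG than with lncPRESS1 (8542 of all genes). The lncPRESS1ΔATG count against the vector was 15 without its middle library a and 5 without vector middle library b. For the difference between stages, the lncPRESS1 count was 14 without its early library a, and the lncPRESS1ΔATG count ran from 0 to 10 over the left-out libraries, with 0 without its early library a, either of its late libraries, either early vector library or vector late library b, 1 without vector late library a, 4 without its early library b, 6 without its middle library a and 10 without its middle library b. Single left-out libraries ended the calls of GAS5 (in 4 of 12 refits, adjusted p up to 0.0684 without vector middle library a) and DANCR (in 3 of 12 refits, adjusted p up to 0.0639 without vector middle library b) with lncPRESS1, of SNHG1 (in 4 of 12 refits, adjusted p up to 0.0885 without lncPRESS1ΔATG middle library b), EPB41L4A-AS1 (in 6 of 12 refits, adjusted p up to 0.113 without lncPRESS1ΔATG middle library b) and DANCR (without vector middle library a or vector late library a, adjusted p up to 0.0594) with lncPRESS1ΔATG and of SNHG3 (in 7 of 12 refits, adjusted p up to 0.0865 without lncPRESS1 late library b) between these constructs.

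**Figure D5:**
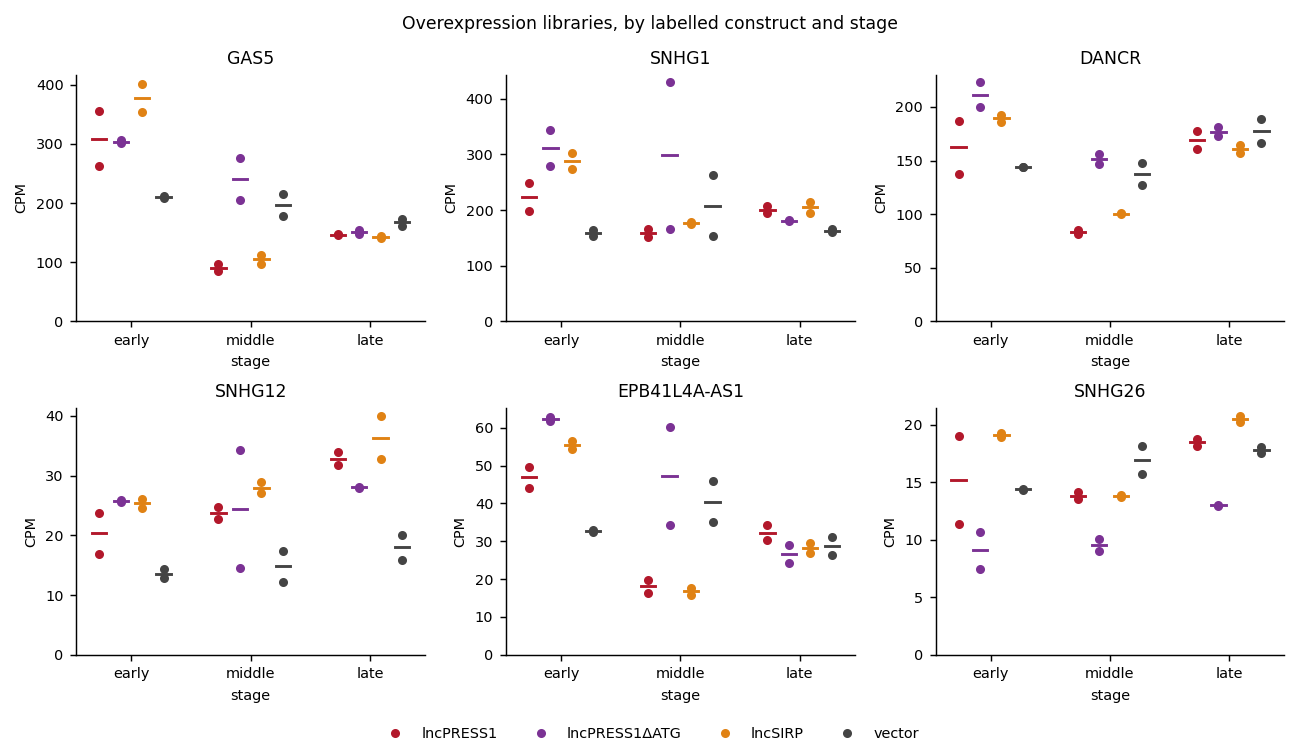
CPM of 6 host genes at the early, middle and late stage (x axis) with lncPRESS1, lncPRESS1ΔATG, lncSIRP and the vector. Points are single libraries and short bars mark the mean of 2 libraries. At the middle stage GAS5, DANCR and EPB41L4A-AS1 are low with lncPRESS1 and lncSIRP, while the mean of SNHG12 lies above that of the vector with each construct.

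The remaining host genes are accounted for by their range over the 96 differentiation libraries and by their calls. SNHG16 ran from 57.9 to 168 CPM, SNHG3 from 32.4 to 179.9, SNHG6 from 37.9 to 83.0, SNHG8 from 9.57 to 54.7 and SNHG15 from 8.05 to 54.1. SNHG11 ran from 6.35 to 15.3 CPM, SNHG30 from 3.75 to 14.3, SNHG20 from 1.79 to 12.2, SNHG10 from 2.12 to 12.1, SNHG9 from 1.30 to 6.23 and SNHG21 from 0.917 to 3.66. Few calls fell on SNHG22, SNHG11 and SNHG28. Among 3 comparisons of WT day 5 with day 0, 6 of edited lines over days 1 to 5 and 3 of constructs over the stages, SNHG22 was called in none, SNHG28 once, in WT cells in Endo, and SNHG11 once, higher with lncSIRP (0.38). SNHG22 and SNHG28 have few counts, which limits what the test can call, and the call of SNHG11 was lost in 6 of 12 refits without 1 library.

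SNHG6 rose in WT cells in SMADi (0.24) and, with the edits, rose in BMP4 (0.13 in KO, 0.15 in ΔATG) and fell in SMADi (-0.35 and -0.28). The WT call of SNHG6 was lost in 3 of 4 refits, with values from 0.090 to 0.34. SNHG16 had the same pattern with the edits (0.12 and 0.12 in BMP4, -0.19 and -0.25 in SMADi). SNHG15 fell in WT cells in Endo (-1.22), fell in both lines in SMADi (-0.21 in KO, -0.19 in ΔATG) and rose with lncPRESS1ΔATG (0.41) and lncSIRP (0.34). SNHG8 fell in WT cells in Endo (-1.48) and SMADi (-0.73) and in both lines in SMADi (-0.34 and -0.22). SNHG10 fell in WT cells in Endo (-1.62) and BMP4 (-0.62), and SNHG21 likewise (-0.95 and -0.58). SNHG17 fell in WT cells in Endo (-1.08) and rose with lncSIRP (0.69 ± 0.20, adjusted p = 0.00931). SNHG9 also rose with lncSIRP (0.56), at 4.51 and 5.21 CPM at the late stage against 2.70 and 3.17 CPM with the vector. Among the low genes, SNHG31 fell in WT cells in BMP4 (-1.49) and with lncPRESS1 (-0.57) and lncSIRP (-0.55). SNHG25 fell in WT cells in SMADi (-1.84) and Endo (-1.55) and rose with lncPRESS1 (1.00). SNHG28 rose in WT cells in Endo, at 0.419 and 0.931 CPM at day 5 against 0 and 0.246 CPM at day 0. Several of these calls were lost without single libraries. In WT cells they were those of SNHG21 in BMP4 (in 3 of 4 refits, with values from -0.91 to -0.27), SNHG31 in BMP4 (3 of 4), SNHG25 in SMADi (2 of 4) and Endo (2 of 4) and SNHG28 in Endo (2 of 4). With lncPRESS1 they were those of SNHG31 (8 of 12) and SNHG25 (6 of 12), with lncPRESS1ΔATG that of SNHG15 (2 of 12), and with lncSIRP those of SNHG31 (9 of 12) and SNHG15 (5 of 12).

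Some of these values may include reads of neighbours. In GENCODE 29 the exons of SNHG21 share 72.9% of their length with AC105339.2 on the same strand, those of SNHG32 23.2% with AL671762.1, those of SNHG20 7.56% with SEC14L1 and those of SNHG3 5.92% with RCC1. All exons of SNHG28 lie in those of a second gene of that name. On the opposite strand, 30.6% of the exons of SNHG16, 29.3% of those of SNHG6 and 25.2% of those of SNHG7 lie over exons of another gene.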

How the data were processed

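Polyadenylated RNA of 120 H1 libraries was sequenced, and the deposited table holds expected counts per gene scaled for length, which the authors estimated against GRCh38 per the submitters' processing notes. Neither the aligner nor the quantifier, nor the annotation behind the counts, is given in the sources used here. The expected counts were rounded to whole numbers. The 96 differentiation and 24 overexpression libraries were fitted separately with edgeR 4.0.16 (R 4.3.3): TMM scaling, filterByExpr, 1 mean per group and a two-sided quasi-likelihood F test, with Benjamini-Hochberg adjustment over the 25821 or 23300 genes tested. Groups and libraries a and b came from the sample labels, and 0 columns of the table were without a sample. Totals of 38298440 to 71220396 counts mean that the spread between libraries, more than counting error, limits most host genes; those under a few CPM are limited by counting too.

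The members, gene lists and tests were chosen with earlier results of these data known. Every member may be named; library values are given for up to 4 called members with the highest rises and up to 4 with the deepest falls of a comparison, among those whose average log2 CPM was 1 or more, and for GAS5, ZFAS1, DANCR, EPB41L4A-AS1 and SNHG1. For comparisons over 5 days they are given for day 4 in BMP4 and SMADi and day 3 in Endo, picked after the values were seen. Day 4 had the most calls in KO but not in ΔATG. In ΔATG, 5 were higher and 1 lower on day 5 of BMP4, against 2 and 0 on day 4. In SMADi, 1 was higher and 13 lower on day 5, against 0 and 12 on day 4. In Endo, day 3 had the most calls in ΔATG, and KO had no calls on any single day.

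Library letters were checked for pairing by correlating the b minus a differences of groups of the same day or stage. The correlation was over 0.1 for 3 of 3 pairs of groups at day 0 and 15 of 15 in BMP4 (0.179 to 0.643), so the letters pair these samples, a pairing that comes from the values and not from the labels. It was over 0.1 for 0 of 15 pairs in SMADi, 1 of 15 in Endo and 0 of 6, 0 of 6 and 4 of 6 at the early, middle and late stage of overexpression.

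Alternatives were DESeq2 1.42.0, limma 3.58.1 (voom), DESeq2 size factors, no filter, a fit of the groups compared only, the letter as a block and each library left out. A block for each protocol and fits without the early or the middle stage were chosen after seeing the data. Gene positions and overlaps are from GENCODE 29, start sites from RefSeq.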

Additional observations from a re-analysis of the deposited data

Results flagged for a closer look

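Under the joint test of edgeR, adjusted over all genes tested, the difference between KO and WT cells over days 1 to 5 differed between BMP4, SMADi and Endo for 21 host genes (all genes, 47.4%), and that between ΔATG and WT cells for 19 (all genes, 48.1%). With the constructs, the difference from the vector differed between stages for 9 of 31 host genes with lncPRESS1 (all genes, 48.2%), 2 with lncPRESS1ΔATG (all genes, 16.4%) and 15 with lncSIRP (all genes, 48.1%). The 3 protocols have their own WT libraries, while the constructs of a stage share 2 vector libraries.

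Named below are the host genes called in opposite directions in 2 protocols or stages. How many of all genes were called in this way was not counted. In KO cells they were 11. Those that fell in SMADi and rose in BMP4 were SNHG14 (adjusted p of the joint test = 3.72e-10), DANCR (1.32e-09), SNHG1 (6.54e-09), SNHG16 (1.02e-08), SNHG6 (2.58e-08), EPB41L4A-AS1 (3.12e-08), SNHG29 (6.10e-07), GAS5 (4.61e-06), ZFAS1 (2.37e-04), SNHG12 (3.59e-04) and SNHG5 (0.00336). Of these, 5 kept both calls whichever library was left out: GAS5, SNHG1, SNHG14, SNHG16 and SNHG29. In ΔATG cells they were 9, namely SNHG16 (2.33e-11), SNHG29 (2.96e-10), EPB41L4A-AS1 (5.52e-10), SNHG14 (2.24e-09), SNHG32 (5.87e-09), SNHG1 (3.29e-08), SNHG6 (2.62e-07), GAS5 (7.80e-06) and SNHG7 (2.48e-05). Of these, SNHG16, SNHG29, EPB41L4A-AS1 and SNHG32 kept their calls in BMP4 and SMADi, and SNHG1 and GAS5 theirs in SMADi and Endo.

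With lncSIRP 7 host genes were called higher than the vector at one stage and lower at another: GAS5 (5.00e-06), SNHG5 (1.11e-05), EPB41L4A-AS1 (4.49e-05), SNHG29 (1.65e-04), SNHG4 (3.34e-04), DANCR (0.00126) and SNHG6 (0.00134). No host gene was called in opposite directions at 2 stages with lncPRESS1 or lncPRESS1ΔATG. Groups of 2 libraries allow no search for a single library far from the others of its group.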

How the results depend on the processing

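Each count of called host genes was recomputed under the alternatives named in the methods; counts not given here stayed within 1.5 times the reported one. The cause of a change was not tested. With only the groups compared, KO in BMP4 had 9 calls, KO in Endo 7, KO at day 0 0, ΔATG in BMP4 4, ΔATG at day 0 0, WT day 5 of BMP4 13, ΔATG against KO 0 in BMP4, 11 in Endo and 1 in SMADi, lncPRESS1ΔATG against lncPRESS1 6, its difference between stages 0 and the late against the early vector 6. The calls over all genes moved too. For KO in BMP4 that fit called 5277 of 25821 genes, against 7404 in the main fit, and for KO in Endo 4879, against 3820. KO in Endo had 3 calls with DESeq2, 0 with DESeq2 size factors, 0 with voom, 0 without the filter and 4 with the replicate block; KO at day 0 had 0 without the filter. DESeq2 gave 3 calls for late against early vector and 6 for the difference of lncPRESS1ΔATG between stages, for which the replicate block gave 4. With a replicate block for each protocol, KO had 5 calls in Endo and 6 at day 0, ΔATG 13 at day 0, and ΔATG against KO 10 in Endo and 1 in SMADi. The block changed no other count by over 1.5 times. Without the middle stage lncPRESS1ΔATG against lncPRESS1 had 3 calls (4393 of all 23300 genes), and without the early stage lncPRESS1ΔATG against the vector had 2 (5057 of all genes).

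Leaving out 1 library at a time, the counts ranged from lowest to highest as follows. KO against WT had 10 to 20 calls in BMP4, 0 to 3 in Endo, 16 to 19 in SMADi and 0 to 7 at day 0, and ΔATG against WT 9 to 15 in BMP4, 7 to 11 in Endo, 13 to 17 in SMADi and 1 to 11 at day 0. ΔATG against KO had 0 to 4 in BMP4 and 4 to 5 in Endo. Against the vector, lncPRESS1 had 7 to 12, lncPRESS1ΔATG 5 to 15 and lncSIRP 8 to 12. The difference between stages had 8 to 14 with lncPRESS1 and 0 to 10 with lncPRESS1ΔATG.

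Among the values of single host genes recomputed, 12090 stayed on their side of the threshold, 517 lost the call, 242 gained one and 10 changed sign with a call in at least 1 fit. The 12090 include values called in neither fit, and the sign of those may have changed. Without the middle stage, lncPRESS1 over vector became 0.049 for DANCR, 0.18 for GAS5, 0.069 for SNHG4 and 0.26 for SNHG5, lncSIRP over vector 0.31 for GAS5 and lncPRESS1ΔATG over lncPRESS1 -0.034 for ZFAS1. Without the early stage, lncSIRP over vector became -0.011 for SNHG29, -0.0061 for SNHG32 and -0.29 for SNHG5. SNHG1 at day 5 of BMP4 became 0.30 without WT day 0 library b, and -0.37 without WT day 0 library a. Depth limits the host genes under 4 CPM (SNHG21, SNHG22, SNHG25, SNHG28 and SNHG31), where few counts stand behind a fold change.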

Other observations

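Protein-coding genes that carry snoRNAs, and the proteins that bind snoRNAs, were counted for the same comparisons. Over days 1 to 5 of BMP4, 11 of 19 protein-coding hosts rose and 0 fell in KO, with a median of 0.09, and 8 rose and 0 fell in ΔATG, with a median of 0.07. Over all genes 28.7% were called in KO and 17.0% in ΔATG. In SMADi 2 rose and 12 fell in KO, with a median of -0.14, and 2 rose and 11 fell in ΔATG, with a median of -0.11, where 45.6% and 45.2% of all genes were called. The lists of hosts and core proteins share NOP56 and DKC1, and KO and ΔATG share their WT libraries. In Endo 1 rose and 4 fell in KO, and 4 rose and 4 fell in ΔATG, where 14.8% and 33.8% of all genes were called.

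TAF1D, a subunit of the selectivity factor of RNA polymerase I, fell deepest among the protein-coding hosts in SMADi, with -0.48 ± 0.03 in KO (adjusted p = 9.12e-18) and -0.44 ± 0.03 in ΔATG (adjusted p = 4.69e-16). EIF4G2, a translation initiation factor, rose by 0.21 ± 0.03 in KO (adjusted p = 1.28e-06) and by 0.20 ± 0.03 in ΔATG (adjusted p = 4.01e-06). In BMP4 the highest rise in KO was that of NOP56, a core protein of C/D box particles that itself hosts snoRNAs (0.19 ± 0.05, adjusted p = 6.20e-04). Of the 8 core proteins, 4 rose and 0 fell in KO in BMP4, and 0 rose and 6 fell in SMADi. NHP2, of the H/ACA box particles, fell in SMADi, with -0.20 in KO (adjusted p = 9.42e-07) and -0.18 in ΔATG (adjusted p = 4.01e-06).

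The levels of all host genes were also summed per library. On day 4 of SMADi the sum was 2550.2 and 2572 CPM in KO and 2683 and 2830.0 CPM in ΔATG, against 3482 and 3407 CPM in WT. On day 4 of BMP4 it was 2833 and 2955 CPM in KO and 2678 and 2949.8 CPM in ΔATG, against 2237 and 2559 CPM in WT. On day 4 of Endo it was 1614 and 1588 CPM in KO and 1623 and 1667 CPM in ΔATG, against 1559 and 1542 CPM in WT. All 4 edited libraries lay below both WT libraries on that day of SMADi, and above both in BMP4 and Endo. Without SNHG14 and SNHG29 this did not hold in BMP4, where ΔATG library a had 1478 CPM, against 1231 and 1555 CPM in WT. Other days differed. On day 1 of SMADi the sum of all host genes was above WT in both lines. It was 2733 and 2742 CPM in KO and 2797 and 2710 CPM in ΔATG, against 2624 and 2607 CPM in WT. On day 2 of Endo it was 2000 and 1999.9 CPM in KO, below the 2108 and 2056 CPM of WT. These sums were not tested.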
